A study of Homo sapiens with 18 samples.

Results

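The 10 genes described here encode NF-kB subunits and well-known genes of the NF-kB feedback loop: NFKB1, NFKB2, RELA, RELB, NFKBIA, NFKBIE, NFKBIZ, TNFAIP3, BIRC3 and ICAM1. They were taken by gene symbol from a table of 56269 genes, and all 10 were expressed highly enough to be tested among 13686 genes. RNA was sequenced from IMR90 cells, a strain of human lung fibroblasts, in 6 groups of 3 libraries each. For 6 h the cells received either PBS or 20 μg/ml of hyaluronan (HA), the long sugar polymer of the extracellular matrix, as a pre-incubation. The HA came from skin fibroblasts of the naked mole-rat and was given as cNSF-HA, heated with an enzyme that was already inactive, or as fNSF-HA, partly cut by hyaluronidase into shorter polymers. PBS, cNSF-HA and fNSF-HA cells were collected straight after the pre-incubation. In the 3 other groups the medium was removed and the cells received 200 μM tert-butyl hydroperoxide (tBHP), an organic peroxide used as an oxidative stressor, for 1 h. These cells were collected 6 h after the tBHP was added, so that tBHP, the change of medium and the later collection time cannot be told apart. All cells came from 1 strain and were grown in medium with serum, and HA was absent during the tBHP exposure.

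NF-kB is a family of dimeric transcription factors built from RELA, RELB, REL, p50 (from the NFKB1 precursor) and p52 (from the NFKB2 precursor). In resting cells, inhibitors of the IkB family, among them the products of NFKBIA and NFKBIE, hold the dimers in the cytoplasm. Signals from cytokine receptors activate the IkB kinase, the inhibitors are degraded, and the dimers enter the nucleus. Among the genes then transcribed are those that end the response: NFKBIA replaces the lost inhibitor, and TNFAIP3 encodes A20, an enzyme that edits ubiquitin on the signalling complexes. NFKB1, NFKB2, RELB, NFKBIE and BIRC3 are also induced by NF-kB in many cells. BIRC3 encodes cIAP2, a ubiquitin ligase of the TNF receptor complex, ICAM1 encodes an adhesion molecule for leukocytes, and NFKBIZ encodes a nuclear IkB protein that modifies the choice of target genes. In fibroblasts the pathway is best known for the release of cytokines and chemokines after TNF or IL-1. These data measured RNA, and neither nuclear entry nor DNA binding was measured.

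The genomic window around the transcription start is shown here because NF-kB binds short sites near many of the genes. RefSeq windows of GRCh38.p14, from 250 bases before to 50 bases after each start, were given for 8 of the 10 genes, with 13 windows in all. They were searched on both strands for the 10-base kB consensus, counting a place that matched on both strands once. The consensus was GGGRNNYYCC, with R for A or G, Y for C or T and N for any base. A match was present for 6 of the 8 genes, whereas RELA and ICAM1 held none in these windows. Sites that depart from the consensus were not searched for, so a promoter without a match can still hold a kB site. Among all 35116 windows of the table, 11.3% held a match, and among all 27305 genes, 13.3% did. The 10 genes were chosen as subunits and feedback targets of NF-kB, so frequent matches could follow from that choice. The 8 genes also had more windows per gene than the table as a whole. The shares are therefore no test of these genes. The following stretches of 30 bases are written 5′ to 3′ on the strand of the gene, with the matches in capitals.
BIRC3, chr11:102317275-102317304, plus strand: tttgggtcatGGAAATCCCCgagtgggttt
BIRC3, chr11:102317339-102317368, plus strand: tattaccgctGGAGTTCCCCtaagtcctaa
TNFAIP3, chr6:137867188-137867217, plus strand: ctttGGAAAGTCCCgtGGAAATCCCCgggc
NFKBIA, chr14:35404811-35404840, minus strand: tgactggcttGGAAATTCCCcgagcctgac
NFKB1, chr4:102501300-102501329, plus strand: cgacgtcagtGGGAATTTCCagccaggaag
NFKBIZ, chr3:101827757-101827786, plus strand: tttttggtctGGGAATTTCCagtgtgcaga
NFKB2, chr10:102395674-102395703, plus strand: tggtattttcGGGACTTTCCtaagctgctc
The matches of BIRC3 lay between positions -199 and -126 from its start, the pair of TNFAIP3 between -67 and -46, and that of NFKBIA between -81 and -72. The match of NFKB1 lay at -49 to -40 from the first of its 2 starts. The one shown for NFKBIZ lay at -223 to -214 from the first of its 2 starts, and a further match, not shown, lay at -239 to -230 from the other. The one shown for NFKB2 lay at -21 to -12 from the last of its 3 starts, and further matches before its later 2 starts are not shown. A match is a stretch of letters and not evidence of binding in these cells. The 6 genes with a match were BIRC3, TNFAIP3, NFKBIA, NFKB1, NFKBIZ and NFKB2.

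Between 20261103 and 26287660 reads were counted on genes in a library. After tBHP, libraries of a group differed in a way that followed the GC content of the transcripts. In the tenth of genes with the highest GC content, the median deviation from the group mean was -0.52 on the log2 scale in replicate 2 of the fNSF-HA + tBHP group and 0.44 in its replicate 3, against -0.03 to 0.02 in the 9 libraries without tBHP. All 10 fibroblast markers were expressed, with summed normalized counts of 1146390 to 1171400 without and 1019570 to 1365270 with tBHP. No epithelial marker of 5 reached a mean of 10, 2 of 5 endothelial markers did (mostly TIE1, with CDH5 without a read in any library), and 1 of 7 leukocyte markers did (CSF1R). The summed leukocyte markers ranged from 26.5 to 42.0 without tBHP and from 45.7 to 86.2 with it, and the endothelial markers from 342 to 386 and from 395 to 674. Their part in the results was not tested. In bulk RNA, fewer cells of a kind and less RNA per cell cannot be told apart.

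Before any exposure to tBHP, RELA and NFKBIA were the most abundant of the 10 transcripts per length. In PBS cells, the normalized count per kb of exon sequence was 390 ± 8.0 for NFKBIA and 385 ± 7.2 for RELA (SD, n = 3), which did not differ beyond their spread. NFKB2 followed with 201 ± 5.5 and NFKB1 with 150 ± 5.3 per kb. TNFAIP3 and NFKBIZ, at 111 ± 5.6 and 109 ± 5.5 per kb, were within their spread of each other, as were RELB and NFKBIE, at 68.5 ± 5.2 and 66.1 ± 1.9. BIRC3 with 40.2 ± 2.8 and ICAM1 with 26.1 ± 5.9 per kb were the least abundant. In cNSF-HA and fNSF-HA cells RELA and NFKBIA were again at the top, and BIRC3 and ICAM1 at the bottom. After tBHP in PBS cells the order was RELA at 601 ± 52, NFKBIA at 286 ± 12, NFKB2 at 222 ± 24, NFKBIZ at 106.5 ± 6.5, NFKB1 at 103 ± 3.3, NFKBIE at 92.0 ± 24, RELB at 76.8 ± 12, TNFAIP3 at 52.1 ± 5.0, ICAM1 at 14.6 ± 3.0 and BIRC3 at 8.02 ± 1.5 per kb. Thus RELA stood alone at the top and BIRC3 moved to the last place, while NFKBIZ and NFKB1, and likewise NFKBIE and RELB, lay within the spread of each other.

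**Figure D1:**
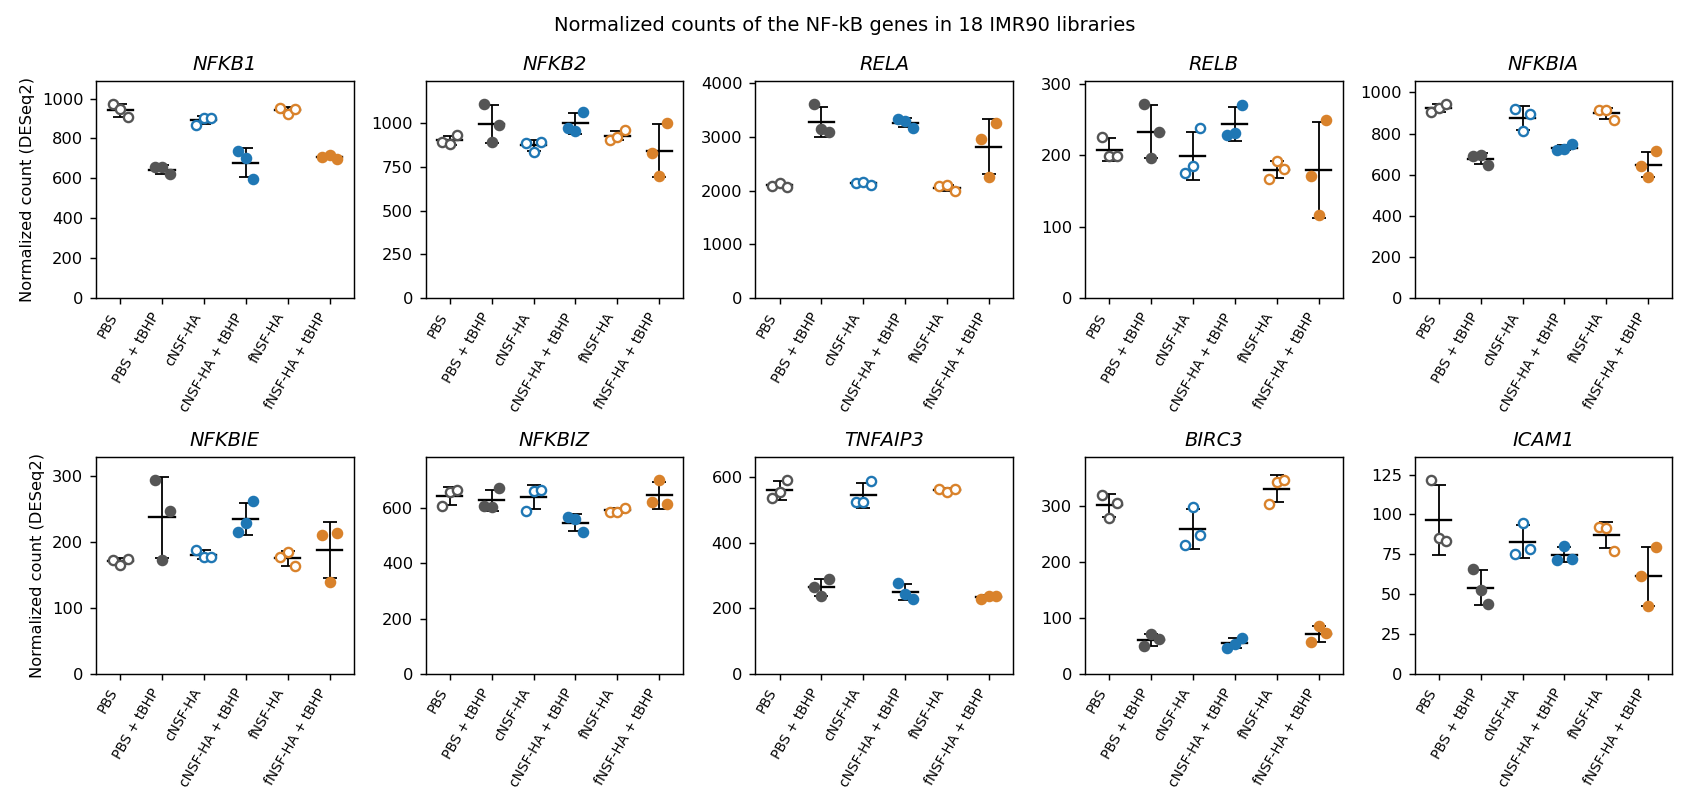
Normalized counts of the 10 genes (y axis, DESeq2-normalized, starting at 0) in the 6 groups (x axis), with open points for libraries without tBHP, filled points for libraries with tBHP, and lines for the mean ± SD of 3 libraries. BIRC3 and TNFAIP3 are lower in all 9 libraries with tBHP than in all 9 without, and RELA is higher in all 9.

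The first comparison asked how each gene differed after tBHP, within each pre-incubation. In PBS cells, 7 of the 10 genes passed the test, with 2 higher and 5 lower after tBHP, where 24.2% of all genes tested were called higher and 26.9% lower (limma, adjusted p under 0.05). In cNSF-HA cells 1 rose and 5 fell (background 24% higher and 26.8% lower), and in fNSF-HA cells 1 rose and 5 fell (19.2% and 22.7%). The total of 7 of 10 in PBS cells stood beside 51.1% of all genes, and the totals of 6 of 10 beside 50.8% and 41.9%, so the number of calls was near the background. The median log2 change of the 10 genes was -0.24, -0.18 and -0.28 in PBS, cNSF-HA and fNSF-HA cells, beside medians over all genes of 0.0043, -0.00053 and -0.034. The 3 libraries of a group did not overlap those of its counterpart for 6 genes (PBS), 8 genes (cNSF-HA) and 6 genes (fNSF-HA), beside 63.8%, 63.7% and 48.7% of all genes. Of the 10, BIRC3, TNFAIP3, NFKB1 and NFKBIA fell and RELA rose in every pre-incubation, and these 15 calls were kept in all alternative settings.

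BIRC3 (chr11:102317450-102339403, GRCh38, plus strand), which encodes cIAP2, had the largest change of the 10. In PBS cells its normalized counts were 321, 279 and 306 before and 48.8, 70.8 and 61.3 after tBHP. They were 230, 299 and 248 before and 46.4, 53.8 and 64.0 after in cNSF-HA cells, and 304, 344 and 348 before and 56.1, 85.1 and 72.9 after in fNSF-HA cells. Every library with tBHP was thus below 90 and every library without it above 200. Log2 changes were -2.32 ± 0.17, -2.23 ± 0.17 and -2.22 ± 0.17 in the order PBS, cNSF-HA and fNSF-HA (SE, adjusted p = 4.3e-09, 8.6e-09 and 8.7e-09, limma). Of all genes tested, 0.212%, 0.175% and 0.117% had a lower change in these comparisons. The BIRC3 transcript is unusually poor in GC (34.8%, with 1.33% of genes lower), and with the trend of each library with GC content and length removed, the change was -1.76, -1.70 and -1.91.

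TNFAIP3 (chr6:137867188-137883312, plus strand), which encodes A20, was also lower after tBHP in all libraries. The counts fell from 536, 553 and 591 to 264, 237 and 288 in PBS cells, from 524, 523 and 589 to 277, 245 and 228 in cNSF-HA cells, and from 565, 554 and 564 to 229, 236 and 238 in fNSF-HA cells. Log2 changes were -1.09 ± 0.09, -1.13 ± 0.09 and -1.26 ± 0.09 (adjusted p = 3.3e-08, 2.5e-08 and 6.3e-09, limma), and 3.92%, 3.32% and 1.48% of genes had a lower change. Unlike BIRC3, TNFAIP3 has a GC content near the middle of all genes (49.5%, with 55.0% of genes lower), and its log2 change lay between -1.34 and -1.02 under all alternatives. It shares 95 nt of exon sequence with an antisense gene, AL357060.1, and the library kit did not mark the strand.

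NFKBIA (chr14:35401511-35404749, minus strand), the inhibitor IkB alpha and the classical feedback target, fell moderately. Its counts were 905, 927 and 943 before and 692, 696 and 647 after tBHP in PBS cells, 922, 811 and 896 before and 722, 726 and 747 after in cNSF-HA cells, and 913, 914 and 867 before and 644, 589 and 715 after in fNSF-HA cells. The groups did not overlap in any pre-incubation. Log2 changes were -0.45 ± 0.08, -0.26 ± 0.08 and -0.47 ± 0.08 (adjusted p = 0.00011, 0.0094 and 8.2e-05, limma). With the GC and length trend removed they were -0.66, -0.53 and -0.65.

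NFKBIE (chr6:44258166-44265788, minus strand), which encodes IkB epsilon, moved in the other direction with a larger spread. In PBS cells the counts were 172, 165 and 175 before and 294, 172 and 246 after tBHP, so that 1 library with tBHP lay within the range of the controls. In cNSF-HA cells they were 188, 177 and 177 before and 215, 228 and 262 after, with no overlap, and in fNSF-HA cells 177, 185 and 163 before and 210, 139 and 213 after. The log2 change was 0.44 ± 0.17 in PBS cells (adjusted p = 0.038, limma), 0.38 ± 0.17 with cNSF-HA (adjusted p = 0.075) and 0.08 ± 0.17 with fNSF-HA (adjusted p = 0.75). NFKBIE is rich in GC (61.0%, with 89.2% of genes lower), and with the GC and length trend removed the change in PBS cells was 0.12 (adjusted p = 0.35). Leaving out any 1 library of the PBS groups except replicate 2 after tBHP also took the call away, with adjusted p of 0.070 to 0.22. Over all omissions of 1 library, the change in PBS cells ranged from 0.27 to 0.65. The call was lost under 7 alternatives in all. In cNSF-HA cells NFKBIE passed the threshold under quantile normalization (0.46, adjusted p = 0.033), with edgeR (0.44, adjusted p = 0.037) and in a fit of only the compared groups (adjusted p = 0.014), and its value with the GC and length trend removed was 0.01. In fNSF-HA cells it was 0.28 without replicate 2 after tBHP and -0.03 without replicate 3.

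Among the subunits, RELA (chr11:65653596-65663094, minus strand), the main activating subunit, was higher in each library with tBHP than in any without. In PBS cells the counts were 2087, 2146 and 2072 before and 3610, 3152 and 3088 after. In cNSF-HA cells they were 2143, 2160 and 2103 before and 3327, 3303 and 3174 after, and in fNSF-HA cells 2080, 2098 and 1994 before and 2954, 2259 and 3252 after. Within the fNSF-HA + tBHP group, replicate 2 lay nearest the controls. The log2 change was 0.64 ± 0.10, 0.61 ± 0.10 and 0.44 ± 0.10 (adjusted p = 2.9e-05, 4.8e-05 and 0.0013, limma), with 90.0%, 89.8% and 86.0% of genes having a lower change. With the GC and length trend removed it was 0.39, 0.35 and 0.32, still past the threshold in each pre-incubation. Without replicate 2 of the fNSF-HA + tBHP group the RELA change in fNSF-HA cells was 0.59, and without replicate 3 it was 0.33, both past the threshold.

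NFKB1 (chr4:102501329-102617302, plus strand), the precursor of p50, fell. The counts were 971, 946 and 906 before and 656, 655 and 620 after tBHP in PBS cells, 868, 904 and 904 before and 739, 702 and 597 after in cNSF-HA cells, and 951, 923 and 947 before and 705, 715 and 695 after in fNSF-HA cells. No library with tBHP reached the lowest one without it. Log2 changes were -0.55 ± 0.08, -0.40 ± 0.08 and -0.42 ± 0.08 (adjusted p = 1.0e-05, 0.00028 and 0.00023, limma). The partners RELA and NFKB1, whose products form the most common dimer, therefore differed in opposite directions after tBHP at the RNA level.

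The subunits of the alternative pathway were not called in the fit of all libraries. NFKB2 (chr10:102394110-102402529, plus strand), the precursor of p52, had counts of 893, 884 and 930 before and 1109, 892 and 989 after tBHP in PBS cells, 887, 838 and 894 before and 975, 956 and 1065 after in cNSF-HA cells, and 906, 921 and 959 before and 829, 700 and 1002 after in fNSF-HA cells. The groups overlapped in PBS and fNSF-HA cells but not in cNSF-HA cells. Log2 changes were 0.14 ± 0.10, 0.19 ± 0.10 and -0.15 ± 0.10 (adjusted p = 0.29, 0.13 and 0.26, limma). NFKB2 has a GC content of 62.4% (92.2% of genes lower), and removing the GC and length trend gave -0.19, -0.15 and -0.22 (adjusted p = 0.0088, 0.041 and 0.0035), so that the direction in PBS and cNSF-HA cells turned and all 3 changes passed the threshold, as did 57.6%, 56.4% and 55.9% of all genes under that setting. NFKB2 also passed in cNSF-HA cells when only the compared groups were fitted (adjusted p = 0.044, higher). In fNSF-HA cells it passed without replicate 3 after tBHP (-0.29, adjusted p = 0.020), whereas without replicate 2 it was -0.03.

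RELB (chr19:45001430-45038198, plus strand), the partner of p52, had counts of 226, 199 and 199 before and 271, 196 and 232 after tBHP in PBS cells, 175, 185 and 238 before and 229, 231 and 270 after in cNSF-HA cells, and 167, 191 and 181 before and 171, 116 and 249 after in fNSF-HA cells. The groups overlapped in each pre-incubation, and the 3 libraries of the fNSF-HA + tBHP group spanned the widest range. Log2 changes were 0.15 ± 0.20, 0.30 ± 0.20 and -0.07 ± 0.20 (adjusted p = 0.54, 0.22 and 0.80, limma). The RELB transcript was the richest in GC of the 10 (65.4%, with 97.3% of genes lower), and without the GC and length trend the changes were -0.23, -0.14 and -0.13. The RELB change in fNSF-HA cells was 0.20 without replicate 2 after tBHP and -0.35 without replicate 3, neither past the threshold.

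ICAM1 was called in PBS and fNSF-HA cells and NFKBIZ in cNSF-HA cells. ICAM1 (chr19:10270835-10286615, plus strand), the adhesion molecule, had counts of 122, 84.9 and 83.0 before and 65.8, 52.3 and 43.8 after tBHP in PBS cells, with no overlap. In cNSF-HA cells they were 75.4, 94.8 and 78.6 before and 71.7, 80.2 and 72.2 after, and in fNSF-HA cells 92.2, 91.6 and 77.3 before and 61.4, 42.5 and 79.7 after, both with overlap. The log2 change was -0.82 ± 0.21 in PBS cells (adjusted p = 0.0032, limma), -0.14 ± 0.21 with cNSF-HA (adjusted p = 0.58) and -0.54 ± 0.21 with fNSF-HA (adjusted p = 0.045). In fNSF-HA cells the call was lost when any 1 library of the compared groups except replicate 3 after tBHP was left out, with adjusted p of 0.051 to 0.21. Over all omissions of 1 library, the change in fNSF-HA cells ranged from -0.75 to -0.31. The call was also lost with edgeR (-0.45, adjusted p = 0.098), in a fit of only the compared groups (0.12), under quantile normalization (0.057) and without the filter on low values (0.10). With the GC and length trend removed the ICAM1 change was -1.07 in PBS cells, -0.40 with cNSF-HA (adjusted p = 0.053) and -0.66 with fNSF-HA (adjusted p = 0.0025). ICAM1 shares 815 nt and 61 nt of exon sequence with the antisense genes AC011511.5 and AC011511.2, whose reads cannot be told apart from its own where they overlap.

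NFKBIZ (chr3:101827991-101861022, plus strand), the nuclear IkB protein, had counts of 607, 658 and 668 before and 608, 605 and 673 after tBHP in PBS cells, and the groups overlapped. In cNSF-HA cells the counts were 590, 665 and 666 before and 570, 561 and 513 after, all 3 below the controls. In fNSF-HA cells they were 588, 588 and 603 before and 623, 703 and 616 after, all 3 above the controls. Log2 changes were -0.04 ± 0.08, -0.22 ± 0.08 and 0.12 ± 0.08 (adjusted p = 0.74, 0.029 and 0.24, limma). The call in cNSF-HA cells was lost under 6 alternatives, among them edgeR (-0.16, adjusted p = 0.087) and the omission of replicate 2 or 3 without tBHP or replicate 3 with it (adjusted p of 0.10 for each).

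**Figure D2:**
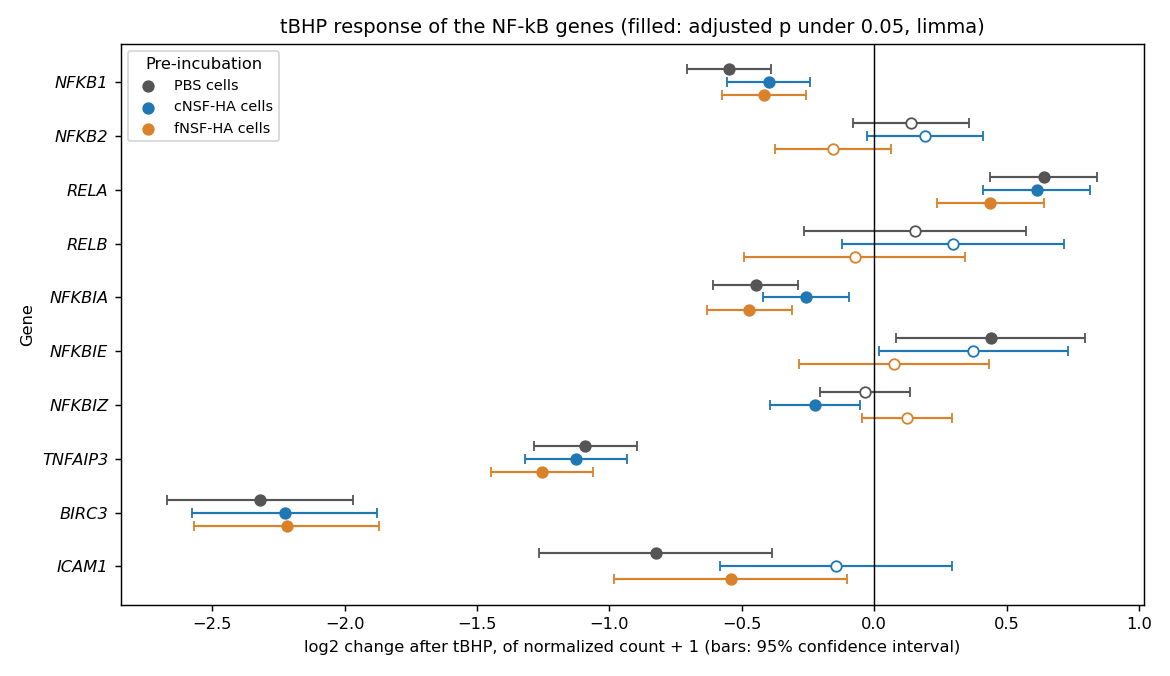
Log2 change after tBHP (x axis) of the 10 genes (y axis) in PBS, cNSF-HA and fNSF-HA cells, with 95% confidence intervals of the limma fit and filled points where the adjusted p was under 0.05. BIRC3 lies between -2.32 and -2.22 and TNFAIP3 between -1.26 and -1.09, while RELA is the single gene called higher in all 3 pre-incubations.

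Whether the response to tBHP differed between pre-incubations was tested directly as a difference of responses, and none of the 10 genes was called in any of the 3 contrasts (limma). No gene of the 13686 was called either (0%). At an unadjusted p under 0.05 there was 1 of the 10 between cNSF-HA and PBS cells (4.06% of all genes), 0 between fNSF-HA and PBS cells (6.88%) and 2 between cNSF-HA and fNSF-HA cells (3.89%). edgeR called 0 genes in all 3, and DESeq2 called 0, 6 and 0 genes, none of them among the 10. For NFKBIZ the response in cNSF-HA cells was lower than in fNSF-HA cells by -0.35 ± 0.11 on the log2 scale (adjusted p = 0.71, limma). The difference for NFKB2 in the same contrast was 0.35 ± 0.15 (adjusted p = 0.71), and that for ICAM1 between cNSF-HA and PBS cells was 0.68 ± 0.30 (adjusted p = 1.0). With the GC and length trend removed these 3 differences were -0.27, 0.07 and 0.67. Over the 10 genes the differences of responses ranged from -0.19 to 0.68 for cNSF-HA minus PBS, from -0.36 to 0.28 for fNSF-HA minus PBS and from -0.35 to 0.40 for cNSF-HA minus fNSF-HA. The opposite responses of NFKBIZ and the missing ICAM1 call in cNSF-HA cells were therefore not shown to differ between pre-incubations. For the genes with the largest responses, the BIRC3 response in cNSF-HA minus fNSF-HA cells was -0.01 (95% confidence interval -0.50 to 0.49) and that of TNFAIP3 was 0.13 (-0.14 to 0.40).

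The second question was whether HA, and its polymer length, changed these genes without tBHP. None of the 10 was called in the 3 comparisons, and neither was any other gene (limma, 0% of 13686). At an unadjusted p under 0.05 there were 0 of the 10 between cNSF-HA and PBS (0.921% of all genes), 0 between fNSF-HA and PBS (0.796%) and 1 between cNSF-HA and fNSF-HA (1.51%). edgeR called 0 genes in each, and DESeq2 called 3 genes between fNSF-HA and PBS and 0 in the other comparisons. Libraries did not overlap for 2 genes between cNSF-HA and PBS (15.2% of all genes), 2 between fNSF-HA and PBS (14%) and 4 between cNSF-HA and fNSF-HA (25%). Respectively, the log2 differences of the 10 genes ranged from -0.23 to 0.08, from -0.21 to 0.14 and from -0.36 to 0.14.

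BIRC3 had the largest difference in this comparison of polymer lengths: the 230, 299 and 248 of cNSF-HA cells were all below the 304, 344 and 348 of fNSF-HA cells, with the 321, 279 and 306 of PBS cells between them and overlapping with both. The log2 difference of cNSF-HA from fNSF-HA was -0.36 ± 0.17 (adjusted p = 1.0, limma). In a fit of only the 6 libraries compared, whose spread was smaller than that of the libraries with tBHP, its adjusted p was 0.0092, and 7.16% of all genes were called. Against PBS, BIRC3 differed by -0.23 ± 0.17 in cNSF-HA and by 0.14 ± 0.17 in fNSF-HA cells. NFKB1 was lower in cNSF-HA (868 to 904) than in PBS (906 to 971) and fNSF-HA cells (923 to 951) without overlap, at log2 differences of -0.08 ± 0.08 from each. For the inhibitor NFKBIA the difference of cNSF-HA from fNSF-HA was -0.04 (95% confidence interval -0.20 to 0.12), for RELA it was 0.05 (-0.15 to 0.26) and for TNFAIP3 it was -0.04 (-0.24 to 0.15). RELB and NFKBIZ were lower in fNSF-HA than in PBS cells without overlap, with log2 differences of -0.21 ± 0.20 and -0.12 ± 0.08.

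The same 3 comparisons were made after tBHP, since the study asked whether HA of different length alters the response to stress. Again none of the 10 genes was called, where 0%, 0.139% and 0% of all genes were called in cNSF-HA against PBS, fNSF-HA against PBS and cNSF-HA against fNSF-HA (limma). The number of the 10 at an unadjusted p under 0.05 was 2 (8.64% of all genes), 3 (22.7%) and 6 (32.2%) in the same order. edgeR called 0, 36 and 0 genes, and DESeq2 called 9, 451 and 793, none of them among the 10. Of the 10, NFKBIZ came nearest, between cNSF-HA and fNSF-HA (adjusted p = 0.055, DESeq2). The study used DESeq2 and reported genes that differed between cNSF-HA and fNSF-HA after tBHP. Libraries did not overlap for 3 of the 10 (9.57% of all genes), 1 (12%) and 3 (13.4%). The comparisons share libraries and are not independent of each other.

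Between cNSF-HA and fNSF-HA after tBHP, 7 of the 10 genes had positive and 3 negative differences, none of them past the threshold. RELB differed by 0.51 ± 0.20 on the log2 scale (adjusted p = 0.11), with 229, 231 and 270 in cNSF-HA against 171, 116 and 249 in fNSF-HA cells. NFKB2 differed by 0.26 ± 0.10 (adjusted p = 0.11) and RELA by 0.23 ± 0.10 (adjusted p = 0.12), and the libraries overlapped for all 3 subunits. The counts of NFKBIA were 722, 726 and 747 in cNSF-HA against 644, 589 and 715 in fNSF-HA cells, all higher, with a difference of 0.18 ± 0.08 (adjusted p = 0.13). BIRC3 was lower by -0.37 ± 0.17 (adjusted p = 0.14), with overlap. Of the 10, NFKBIZ had the smallest p: its 570, 561 and 513 in cNSF-HA cells were below the 623, 703 and 616 of fNSF-HA cells, at -0.24 ± 0.08 (adjusted p = 0.098). NFKBIE (0.35 ± 0.17), ICAM1 (0.33 ± 0.21), TNFAIP3 (0.09 ± 0.09) and NFKB1 (-0.06 ± 0.08) had adjusted p of 0.16 to 0.59.

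With the GC and length trend of each library removed, the differences between cNSF-HA and fNSF-HA after tBHP were -0.0034 for RELB, -0.11 for NFKB2, 0.03 for RELA, 0.06 for NFKBIA, 0.0022 for NFKBIE and -0.03 for BIRC3. Those of the other genes were -0.15 for NFKBIZ (adjusted p = 0.22), 0.14 for ICAM1, 0.13 for TNFAIP3, which was larger than without the removal, and -0.04 for NFKB1. Replicates 2 and 3 of the fNSF-HA + tBHP group, which stood apart by GC content, moved these values as well. Without replicate 3, 6 of the 10 passed the threshold, as did 40.8% of all genes: RELB at 0.78 (adjusted p = 0.0027), NFKB2 at 0.39, RELA at 0.34, NFKBIA at 0.25 and ICAM1 at 0.54 were higher in cNSF-HA and NFKBIZ at -0.27 was lower. Without replicate 2 the differences were 0.23 for RELB, 0.13 for NFKB2, 0.08 for RELA, 0.11 for NFKBIA, 0.09 for ICAM1 and -0.18 for NFKBIZ, none past the threshold. NFKBIE and BIRC3 passed it in neither case. Their differences were 0.45 and -0.34 without replicate 3, and 0.15 and -0.23 without replicate 2. Against PBS after tBHP, fNSF-HA cells had lower RELB (-0.44 ± 0.20), NFKB2 (-0.25 ± 0.10) and RELA (-0.23 ± 0.10), which passed the threshold when replicate 3 was left out (-0.71, -0.38 and -0.34, with 29.4% of all genes called). Without replicate 2 the same differences were -0.16, -0.12 and -0.08, and with the GC and length trend removed they were -0.04, 0.05 and -0.08. In cNSF-HA cells, ICAM1 was higher than in PBS cells after tBHP by 0.48 ± 0.21 and NFKBIZ lower by -0.20 ± 0.08, each without overlap (adjusted p = 0.57 and 0.56, limma). The differences of the 10 genes after tBHP ranged from -0.20 to 0.48 for cNSF-HA against PBS and from -0.44 to 0.24 for fNSF-HA against PBS.

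**Figure D3:**
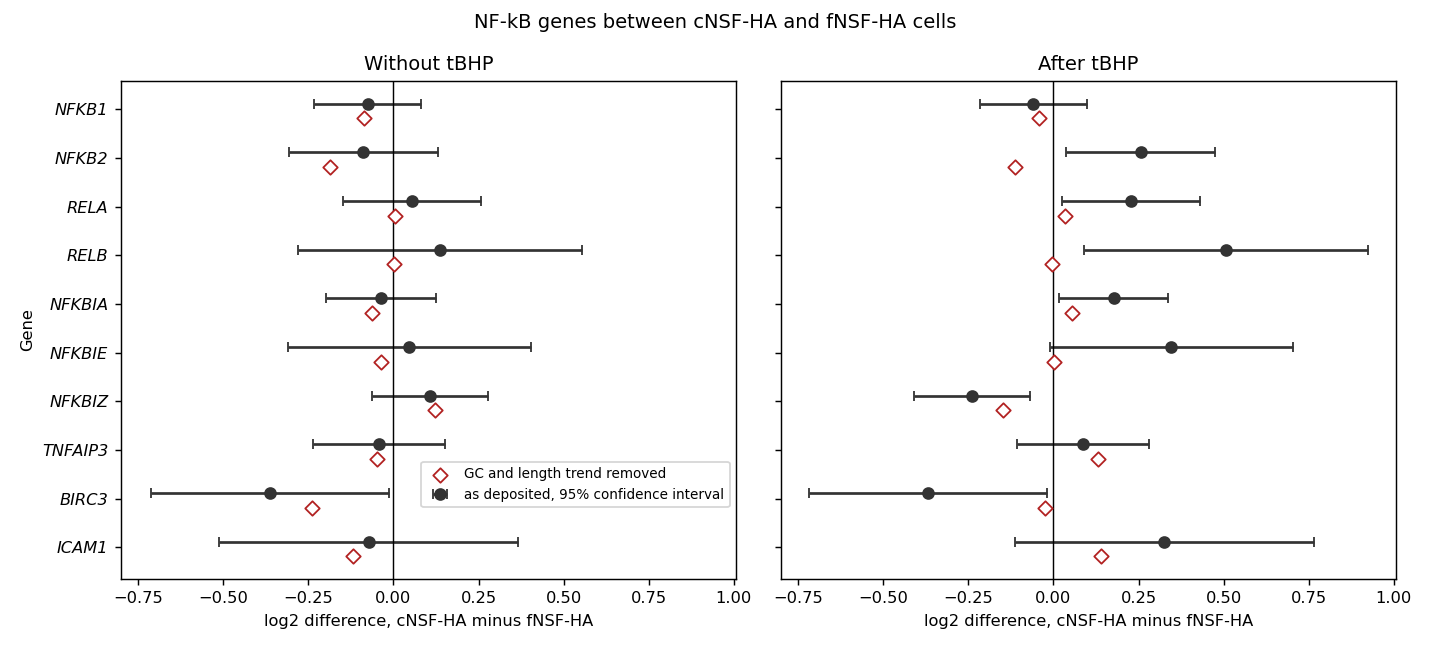
Log2 difference between cNSF-HA and fNSF-HA cells (x axis) of the 10 genes (y axis) without tBHP (left) and after tBHP (right), with 95% confidence intervals of the limma fit, not adjusted for the number of genes (filled circles) and the value after the GC and length trend of each library was removed (open diamonds). After tBHP the RELB value is 0.51 as deposited and -0.0034 with the trend removed, and that of NFKBIZ is -0.24 and -0.15.

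Other genes of the pathway were read in 4 lists, by their tBHP response in PBS cells first. In these cells 24.2% of all genes tested were called higher and 26.9% lower. Of the 4 other subunits and IkB proteins, 2 rose and 1 fell: BCL3, a nuclear IkB protein that binds p50 and p52, at 1.05, NFKBID, another nuclear IkB protein, at 0.72, and REL, the c-Rel subunit, at -0.95, with a list median of 0.50. The median of the 21 receptors, adaptors and kinases was -0.05, with 4 that rose and 6 that fell, near the shares of 24.2% and 26.9% over all genes. TNFRSF1A, the main TNF receptor, had the largest rise of that list at 1.08 and BIRC2, the close relative of BIRC3 that encodes cIAP1, the largest fall at -0.89. Of the 7 genes that end NF-kB signalling, 2 rose and none fell: ZC3H12A, an RNase that degrades cytokine transcripts, at 0.73 and TNIP1, a partner of A20, at 0.71 (list median 0.17). PDLIM2, a ubiquitin ligase for nuclear RELA, had the lowest value of that list at -0.28 and was not past the threshold (adjusted p = 0.14, limma). NFKBID and TNIP1 were named after their values were seen.

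A list of 20 other target genes held 15 that were expressed highly enough. Of these, 10 rose and 2 fell in PBS cells, with a median of 0.86, where 24.2% of all genes rose and 26.9% fell. The chemokine genes CXCL3 (2.73) and CXCL8 (1.36), the prostaglandin synthase PTGS2 (1.27), the cytokine IL6 (1.18), TNFAIP2 (1.15) and IER3 (1.11) rose by at least 1 on the log2 scale, and the chemokine CCL2 fell by 1.01. The other gene of the list that fell was SOD2, mitochondrial superoxide dismutase, at -0.47, which was also named after its value was seen. BIRC3 and TNFAIP3 thus fell in the libraries in which IL6 and CXCL8 rose. Many of these targets are also controlled by factors other than NF-kB. In cNSF-HA and fNSF-HA cells, 10 and 7 of the 15 rose and 3 and 3 fell, where 24% and 19.2% of all genes rose and 26.8% and 22.7% fell. For the 21 receptors, adaptors and kinases 5 and 4 rose and 7 and 9 fell, for the 7 terminators 3 and 2 rose and 0 and 1 fell, and for the 4 other subunits and IkB proteins 2 and 2 rose and 1 and 1 fell. In the limma fit of all libraries, no gene of the 4 lists was called in any comparison of HA groups or of responses. Other settings are not reported for these lists.

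**Figure D4:**
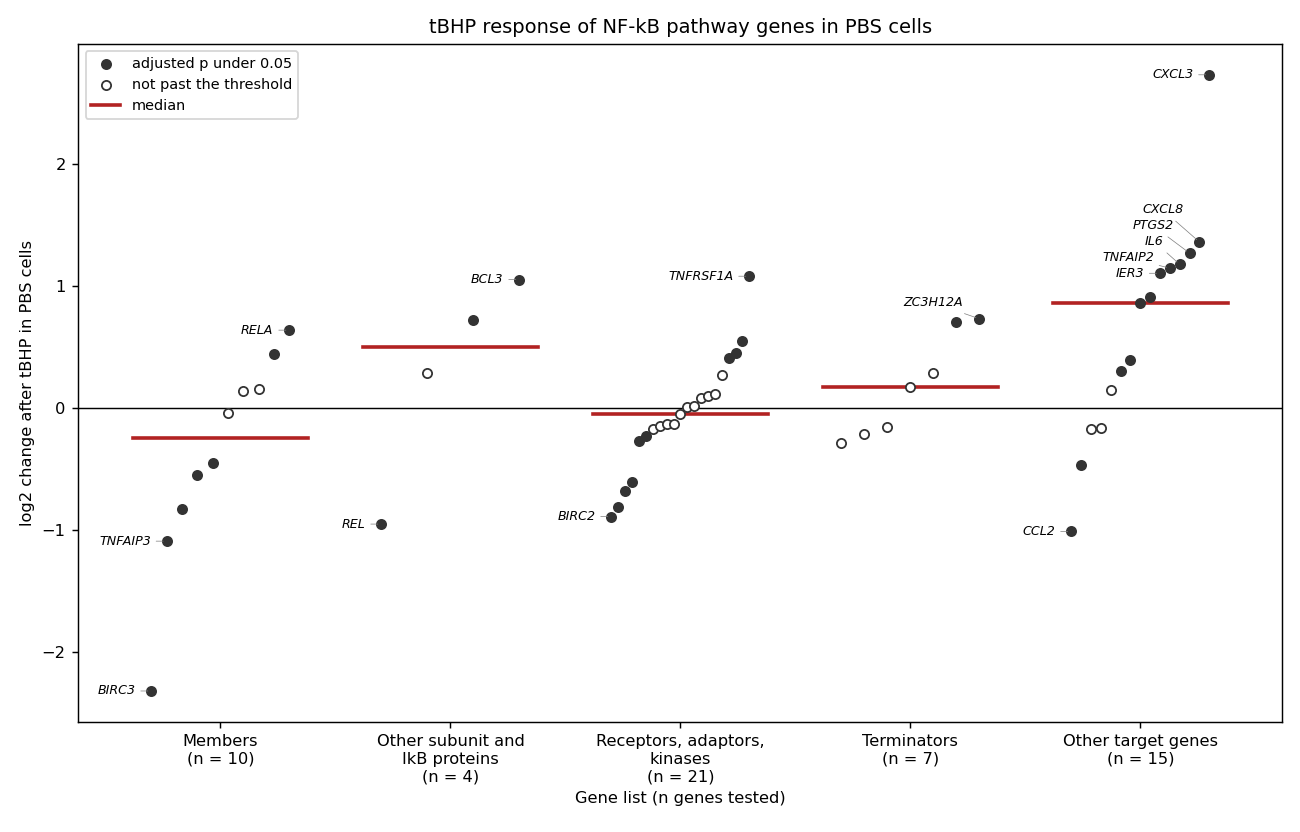
Log2 change after tBHP in PBS cells (y axis) of the 10 genes and of 4 lists of NF-kB pathway genes (x axis), with filled points past the threshold of limma and red lines for the median of each list. The 10 genes have a median of -0.24 and the other target genes one of 0.86, with CXCL3 highest at 2.73 and BIRC3 lowest at -2.32.

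For 8 of the 10 genes, the genes whose pattern over the 18 libraries was most like theirs were found by the root mean square (RMS) difference of log2 values, each centred on its own mean, among 10312 genes (10313 for ICAM1) with a mean of at least 100. BIRC3 was nearest to FAM111B, PTGFR and PHLDB2, with an RMS difference of 0.22 to 0.26 log2 units. The RMS difference was not scaled to a gene's own changes, which were largest for BIRC3. Its size can therefore not be compared between the 10 genes. NFKBIA was nearest to CYR61, EHD4 and NF2 (0.064 to 0.066). RELA was nearest to PPARD, at 0.045, followed by KAT5 and TEAD3, both at 0.059. NFKB1 lay nearest to RGMB, ALDH18A1 and PDCD6IP (0.056 to 0.060), and NFKBIZ to GATAD1, CUL4A and CELF1 (0.073 to 0.076). The nearest genes were TAF1C, P3H3 and FAM73B for RELB (0.11), and CYHR1, BIN1 and NAT6 for NFKBIE (0.095 to 0.10). For ICAM1 they were GRWD1, KRT18 and TBC1D2 (0.18 to 0.20). The 18 points share the GC trend of the libraries, and the spread of the members between replicates was larger with tBHP: their median SD was 0.068 without and 0.18 with it, beside 0.076 and 0.21 over all genes.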

How the data were processed

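RNA was sequenced by the authors with the TruSeq RNA V2 kit as single-end reads of 100 nt, in 18 libraries of IMR90 cells. The submitters' processing notes name Trimmomatic 0.32, STAR 2.5.2b, featureCounts of Subread 1.5.0-p3, DESeq2 and GRCh38.p7, and the gene annotation is not given in the sources used here. The deposited signal of each library is a normalized count, made by the authors with DESeq2 by dividing reads by a size factor. Multiplied back, 100% of the values lay within 5.3e-05 of a whole read, so reads were recovered. In 3 further columns the authors give a p-value, a q-value and a rank for each gene, none of which was used.

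Log2(value + 1) was tested with limma 3.58.1 in R 4.3.3 (mean-variance trend, 1 coefficient per group, all 18 libraries, two-sided, Benjamini-Hochberg adjustment over 13686 genes with a mean of at least 10, threshold 0.05), so fold changes of low genes are understated. Groups and replicates came from the labels, and the replicates are biological according to the study. The genes and lists were chosen with earlier results of these data known. All 10 genes were described in every comparison, each by value in the tBHP responses and between cNSF-HA and fNSF-HA after tBHP, and otherwise by their range and the values of some. The genes most like NFKB2 and TNFAIP3 are not reported here. From the lists, genes past the threshold with an absolute log2 change of at least 1 in PBS cells and the largest rise and fall were named. Alternatives were pseudocounts of 0.1 and 5, no filter, a minimum mean of 50, 2 rescalings (median ratio and quantile), edgeR 4.0.16 and DESeq2 1.42.0 on recovered reads, a replicate block, only the compared groups, and removal of the GC and length trend (natural splines with 5 degrees of freedom, 91.5% of genes). In addition, each library of the compared groups was left out in turn. Gene coordinates, lengths and GC content came from GENCODE 29 and promoter windows from RefSeq.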

Additional observations from a re-analysis of the deposited data

How the results depend on the processing

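Of 222 counts of called genes recomputed under the alternatives, 219 were within 1.5 times the reported count. For the 9 contrasts with a reported count of 0, this meant a count of 0 again. The 3 counts that moved were cNSF-HA against fNSF-HA without tBHP in a fit of only the compared groups (1, BIRC3, instead of 0), and, with replicate 3 of the fNSF-HA + tBHP group left out, fNSF-HA against PBS after tBHP (0 to 3) and cNSF-HA against fNSF-HA after tBHP (0 to 6). The counts do not show which genes were called. With the GC and length trend removed, NFKBIE lost its call in PBS cells (adjusted p = 0.35, limma). NFKB2 was then called lower (adjusted p = 0.0088). Of 2220 recomputed log2 changes of the 10 genes, 2095 kept their direction and side of the threshold, 22 lost and 16 gained significance, and 87 turned, 12 of them among the tBHP responses, 47 among the comparisons of HA groups and 28 among the differences between responses. None that turned had passed the threshold as reported. The following are those of the values the report gives. With the GC and length trend removed, the tBHP response turned for NFKB2 (-0.19 in PBS and -0.15 in cNSF-HA cells), RELB (-0.23 and -0.14) and NFKBIE (-0.024 in fNSF-HA cells). Under the same setting the differences of cNSF-HA from fNSF-HA turned for NFKBIE without tBHP (-0.035) and for NFKB2 (-0.11) and RELB (-0.0034) after tBHP, and those of fNSF-HA from PBS after tBHP for NFKB2 (0.054) and BIRC3 (-0.045). Quantile normalization and edgeR turned NFKBIZ in PBS cells (0.0083 and 0.029) and RELB in fNSF-HA cells (0.017 and 0.051). With 1 library left out, the range crossed 0 in 28 of 120 combinations of gene and comparison, 2 of them tBHP responses. Among the values given above these were the tBHP response of NFKBIE (-0.029 to 0.28) and RELB (-0.35 to 0.20) in fNSF-HA cells, the difference of polymer lengths in NFKBIA (-0.075 to 0.017) and NFKBIE (-0.0029 to 0.089) without tBHP, and in NFKB1 after it (-0.12 to 0.031). The difference in the BIRC3 response between cNSF-HA and fNSF-HA cells turned with a pseudocount of 5 (0.010), with the trend removed (0.21) and with 1 library left out (-0.17 to 0.13). The cause was not tested. Replicate numbers were not taken to pair libraries. Those with the same number had correlations of -0.12 to 0.33 in their deviations from the group means, and those with different numbers -0.43 to 0.42. Between cNSF-HA and fNSF-HA cells the range was 0.034 to 0.11 for the same number and -0.11 to 0.049 for different numbers. Pairing can therefore not be excluded. The replicate block left the number of called genes at 7, 6 and 6 in the tBHP responses and at 0 in the 9 other contrasts. Depth limits ICAM1 and BIRC3 most, which had the lowest counts after tBHP.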
